A study of Mus musculus with 24 samples.

Results

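The 41 genes described here encode nuclear subunits of respiratory complexes II, III, IV and V, and the electron carrier cytochrome c, and their RNA was measured in the choroid plexus of wild-type and J20 mice. Members were taken by symbol: Sdha, Sdhb, Sdhc, Sdhd, Cycs, Cyc1, and every gene whose symbol starts with Uqcr, Cox4, Cox5, Cox6, Cox7, Cox8 or Atp5. Of 47 such genes with a probe, 41 had a probe detected (detection p under 0.01) on at least 3 arrays, among 8232 genes and 11464 probes that met the same filter out of 25697 probes. They comprise 3 genes of complex II, 7 of complex III, Cycs, 15 of complex IV and 15 of complex V. Each gene is given by its brightest probe. No array detected Atp5k, Cox7b2, Cox8c, Uqcrfs1 or Uqcrq, 1 array detected Cox6a2, and Sdha had no probe used here.

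The study asked how the choroid plexus transcriptome differs with age and genotype, with 1 Illumina array for each of 24 mice. The youngest group, of 3 months, held 3 wild-type (WT) and 4 J20 mice, the group of 5-6 months 4 and 4, and the oldest group, of 11-12 months, 6 and 3. J20 is 1 transgenic line in which a PDGF-B promoter, active mainly in neurons, drives a human amyloid precursor protein with familial Alzheimer's disease mutations. The labels name no treatment, each array holds total RNA of whole choroid plexus, and an animal is named here by the number in its label.

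The respiratory chain sits in the inner mitochondrial membrane. Complex II passes electrons from succinate to ubiquinone, complex III passes them on to cytochrome c, complex IV hands them to oxygen, and complex V makes ATP with the proton gradient that the chain builds. The choroid plexus epithelium is rich in mitochondria, and its secretion of cerebrospinal fluid depends on ATP-driven ion pumps. Several subunits of complex IV exist as tissue isoforms, among them forms known from heart and skeletal muscle, lung and testis.

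The labelled tissue was checked on a list of 12 epithelial markers. All 8 of them that were tested, including Ttr, which encodes the thyroid hormone carrier transthyretin, and Aqp1, which encodes a water channel, were detected on 24 of 24 arrays. App, whose probe may or may not read the human transgene, differed between J20 and WT over the 3 ages by a log2 value of -0.03 (standard error 0.171, adjusted p = 1 in limma). The summed linear signal of the 5 tested of 8 neuron markers was 2858 in WT animal 13 (11-12 months) and ran from 203 to 973 in the other animals. Of the untested neuron markers, Snap25 and Nefl were detected on 0 arrays and Tubb3 on 1. For the 4 tested of 7 erythroid markers the sum was 16249 in J20 animal 18 (5-6 months) and ran from 658 to 9284 in the others. The part of these cells in the results was not tested. In bulk tissue, fewer cells of a type and less RNA per cell cannot be told apart.

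The arrays are assigned here to 3 BeadChips, slides of 8 arrays each. This assignment follows the order of the samples in the series, and the sample titles name no slide. Before any comparison, 3 arrays of BeadChip 2 stood apart from the rest. They belong to animal 15 (WT, 3 months), animal 18 (J20, 5-6 months) and animal 21 (J20, 11-12 months), and limma gave them the lowest array weights of the 24 (0.175, 0.341 and 0.330). The mean over members of the log2 intensity, each gene centred on its own mean over 24 animals, was -0.32, -0.33 and -0.24 in these 3 animals and ran from -0.10 to 0.19 in the other 21. In each of the 3 animals 29 of 41 members lay below the mean of their own group. That count ran from 6 to 28 in the other 21, highest in WT animal 13 (11-12 months), so it did not set the 3 apart. Raw signal was also low on these arrays, with a log2 upper quartile of 7.90, 7.71 and 7.91, but it was lowest on the array of animal 35 (J20, 11-12 months), at 7.44, whose member mean was 0.01. The summed linear signal of the ependyma markers (Foxj1 and Rsph1, the 2 of 6 that were tested, while Dnah5 was detected on 0 arrays) was highest in the same 3 animals, at 12786, 14584 and 13765. Close behind came J20 animal 25 (5-6 months), at 12374, whose member mean was -0.06. In the 6 groups that sum ran from 8653 to 12786 (WT) and 8119 to 11408 (J20) at 3 months, from 9164 to 9908 and 7747 to 14584 at 5-6 months, and from 8085 to 11049 and 10076 to 13765 at 11-12 months. Rsph1 (mean log2 intensity 13.2) held nearly all of that sum, with Foxj1 at 7.4. Whether these 2 genes mark ependyma alone in this tissue was not tested, nor was the part of ependyma in the results. Several results of members that rest on these 3 animals are given with and without them. For the wider gene lists only the fit of all 24 animals is given. A fit with signal strength (the log2 upper quartile) as a covariate is given where it turned a sign or moved the difference of a named member by over 1.5 times. No member passed in that fit.

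**Figure D1:**
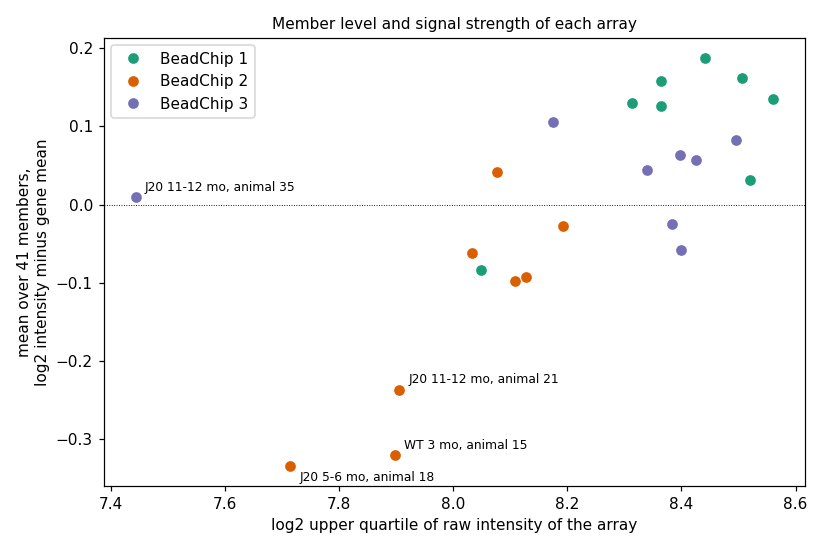
Mean over the 41 members of log2 intensity minus each gene's mean (vertical) against the log2 upper quartile of raw intensity (horizontal), 1 point for each of 24 arrays, coloured by BeadChip. WT animal 15, J20 animal 18 and J20 animal 21 lie at -0.32, -0.33 and -0.24, while J20 animal 35 lies at 0.01 with the lowest signal, 7.44.

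Of the 41 members, 39 were detected on 24 of 24 arrays. The exceptions were Sdhd, detected on 22, and Cox4i2, the lung isoform of a regulatory subunit of complex IV, detected on 4. Between animals of the same group the median member had a pooled standard deviation of 0.22 on the log2 scale, against 0.32 for the median tested probe. Member probes are bright, with a median mean log2 intensity of 12.95 that lay above 97.4% of tested probes, and the part of brightness in their small spread was not tested.

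Atp5pb, which encodes subunit b of the peripheral stalk of ATP synthase, varied most between animals of a group (pooled SD 1.24), followed by Cox7a2l, a factor that joins complexes III and IV into supercomplexes (0.81), and Cox5a, a nuclear subunit of complex IV (0.65). Atp5j2 and Atp5b, the f subunit and the catalytic beta subunit of ATP synthase, and Uqcr10, a small subunit of complex III, varied least (0.052, 0.054 and 0.063). The wide spreads rested in part on the 3 animals named above. Without them the pooled SD was 0.87 for Atp5pb, 0.57 for Cox7a2l and 0.32 for Cox5a.

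**Figure D2:**
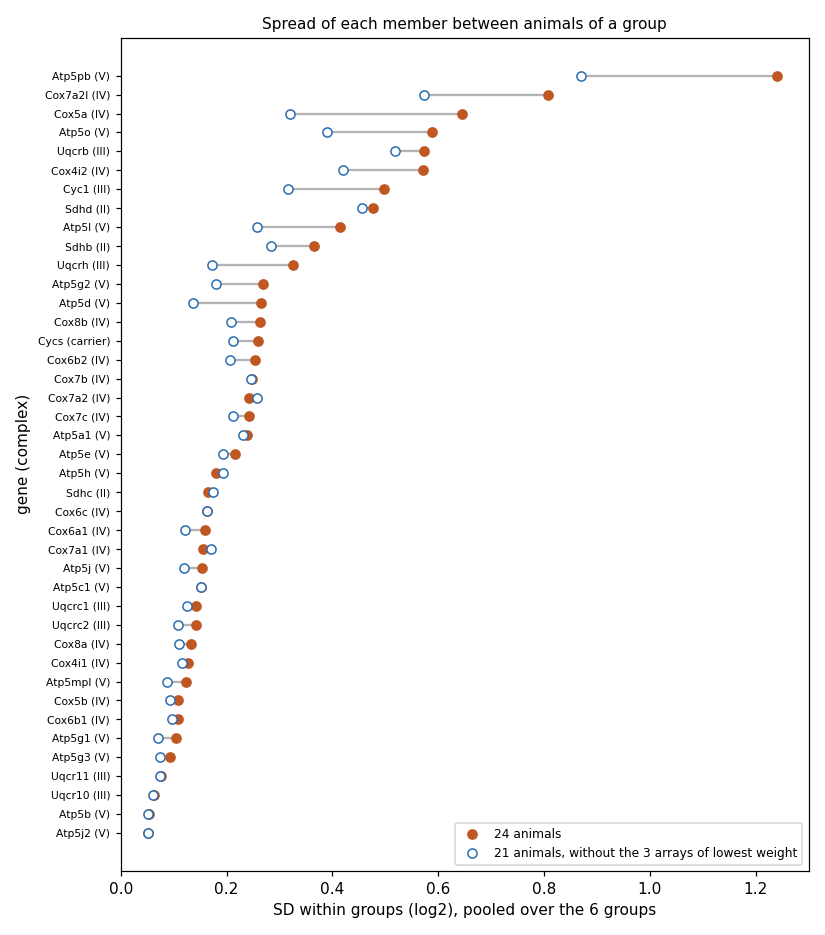
Standard deviation of log2 intensity between animals of a group, pooled over the 6 groups, for each of the 41 members with its complex in brackets; filled points use 24 animals and open points 21, without the 3 arrays of lowest weight. Atp5pb stands at 1.24 with and 0.87 without these arrays, and Atp5j2 is lowest, at 0.052.

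**Figure D3:**
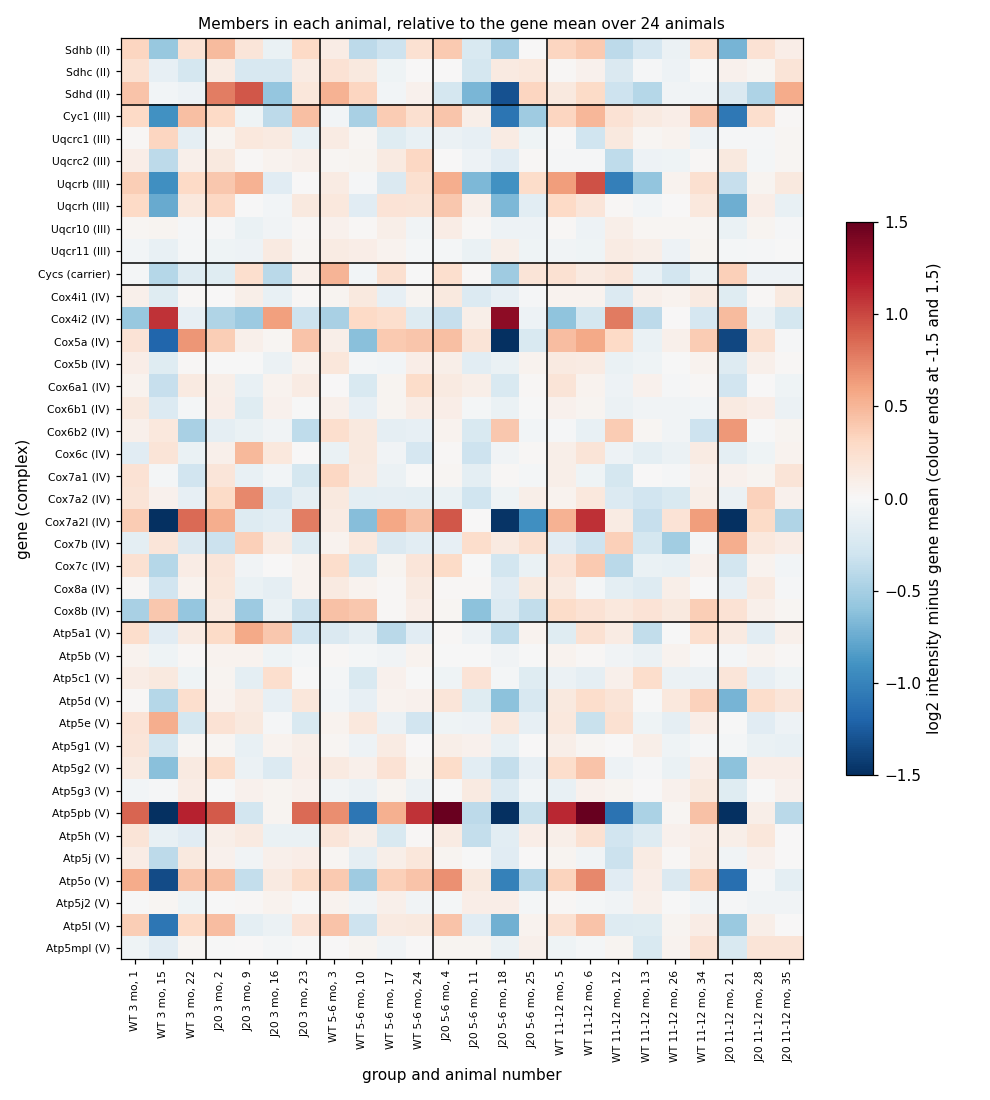
Log2 intensity of each member (rows, by complex) in each of the 24 animals (columns, by group), minus the gene's mean over all animals, with the colour scale ending at -1.5 and 1.5. The columns of WT animal 15, J20 animal 18 and J20 animal 21 are blue for Cyc1, Cox5a, Cox7a2l, Atp5pb and Atp5o.

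Promoters of 32 members matched a RefSeq table of mouse promoters (build GRCm38.p6, 250 bases before to 50 after each start, 35 promoters). Binding motifs of factors known to act on nuclear respiratory genes were searched on both strands. The strict motif of the factor NRF1, seen as the first capitals of Cox6a1 below, occurred in promoters of 3 of 32 members (9.375%) and of 1.073% of all genes, and a looser NRF1 motif with any bases at its centre, which includes the first, in 8 members (25%) against 6.997%. CCGGAAG, bound by ETS factors such as GABPA, occurred in 11 members (34.38%) against 9.928%, and CCATCTT, a motif of YY1, in 4 (12.5%) against 7.278%. A match is a description of the letters and not a site. Shown are the bases just before the start of Sdhd and Cox8b, which led the comparisons below by unadjusted p, and of Cox6a1, which holds 3 of the 4 motifs, each 5′ to 3′ on the minus strand with motif letters in capitals.
Sdhd, chr9:50603850-50603900: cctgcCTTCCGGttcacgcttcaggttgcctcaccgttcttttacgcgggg
Cox6a1, chr5:115348959-115349128: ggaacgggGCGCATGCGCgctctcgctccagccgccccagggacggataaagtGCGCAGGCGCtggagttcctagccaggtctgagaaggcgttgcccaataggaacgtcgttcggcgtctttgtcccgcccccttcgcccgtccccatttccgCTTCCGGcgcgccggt
Cox8b, chr7:140900447-140900616: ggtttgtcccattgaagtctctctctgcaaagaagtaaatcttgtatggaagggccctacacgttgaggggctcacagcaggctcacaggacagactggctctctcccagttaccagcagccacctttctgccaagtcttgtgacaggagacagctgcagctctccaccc
The Sdhd stretch is only the 51 bases before its start, because the neighbouring gene Timm8b, which encodes a mitochondrial import chaperone, is annotated beyond them. Cox8b had 1 CpG in these 170 bases, the fewest of the 35 member promoters, whose median was 11, and it held none of the 4 motifs. Cox6a1 had 22 CpGs, and the median over all promoters was 4.

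Complex II showed its largest difference in Sdhd, which encodes a membrane anchor of succinate dehydrogenase. In WT mice its log2 intensity was 6.62, 6.14 and 6.11 at 3 months and 6.70, 6.51, 6.14 and 6.24 at 5-6 months. In J20 mice it was 6.95, 7.12, 5.61 and 6.36 at 3 months and 5.92, 5.50, 4.88 and 6.51 at 5-6 months. At 5-6 months J20 animals 4, 11 and 18 lay below every WT animal and animal 25 lay among them, and 2 of the 4 J20 arrays detected the probe, where all 4 WT arrays did. At 11-12 months WT mice ran from 5.76 to 6.48 (median 6.13, n = 6) and J20 mice stood at 5.96, 5.72 and 6.74, so the groups overlapped. J20 differed from WT at 5-6 months by -0.70 (standard error 0.319), short of the threshold (limma adjusted p = 1), and the value was -0.42 without the 3 animals. Over the alternatives other than leaving out each animal the difference ran from -0.70 to -0.22. The Sdhd probe is dim, with a mean log2 intensity of 6.18 against 7.84 for the median tested probe. Within BeadChips 1, 2 and 3 the difference was -0.69, -0.95 and 0.26. Within J20, 5-6 minus 3 months gave -0.81 (standard error 0.319, adjusted p = 0.961 in limma), or -0.53 without the 3 animals, and -1.11, -0.42 and 0.15 within the BeadChips. Over the same alternatives this difference ran from -0.81 to -0.28.

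Sdhb, the iron-sulfur subunit of complex II, stood at 9.86 in WT animal 15, 9.93 in J20 animal 18 and 9.74 in J20 animal 21, and between 10.04 and 10.91 in the other 21 animals. Its group means ran from 10.31 to 10.65, a range smaller than its pooled SD of 0.37. Sdhc, the other membrane anchor, had group means from 13.09 to 13.24 and a pooled SD of 0.17. Neither gene passed in any comparison.

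In complex III, Cyc1 encodes cytochrome c1, the subunit that reduces cytochrome c. It stood at 10.81, 10.62 and 10.63 in WT animal 15, J20 animal 18 and J20 animal 21, below the range of 11.18 to 12.21 in the other animals. Uqcrb, a ubiquinone-binding subunit, had group means from 9.74 to 10.12 beside a pooled SD of 0.57. The core proteins Uqcrc1 and Uqcrc2 and the small subunits Uqcr10 and Uqcr11 varied little between groups, with group means that spanned 0.10, 0.22, 0.07 and 0.13, and those of the hinge protein Uqcrh spanned 0.35 beside a pooled SD of 0.32. Uqcrc2 had the smallest p of the members in the test of genotype by age (J20 minus WT at 5-6 months less that at 3 months, -0.34, adjusted p = 0.986 in limma), and that value was -0.17 without WT animal 15 and -0.14 without the 3 animals. In WT its 5-6-month values were 13.27, 13.28, 13.38 and 13.56, and at 11-12 months they ran from 12.87 to 13.27 (median 13.21, n = 6), so the groups met at their edges (13.268 and 13.272) without overlap, and 11-12 minus 5-6 months was -0.22 (adjusted p = 1 in limma).

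Cycs, which encodes somatic cytochrome c, was detected on every array. In WT mice it stood at 6.51, 6.12 and 6.35 at 3 months and at 7.05, 6.504, 6.78 and 6.54 at 5-6 months, and the lowest older animal lay just below the highest younger one. The difference was 0.39 (standard error 0.201, adjusted p = 1 in limma). Over the alternatives other than leaving out each animal it ran from 0.16 to 0.39. Without WT animal 15 the WT group means were 6.43 at 3 months and 6.72 at 5-6 months. The brightest Cycs probe is dim, with a mean log2 intensity of 6.54 against 7.84 for the median tested probe. A second tested Cycs probe, detected on 6 arrays, gave 0.17.

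Complex IV held the gene with the most named differences, Cox8b, the heart and muscle isoform of subunit 8. Its log2 intensity in WT mice was 13.05, 13.93 and 12.95 at 3 months and 13.97, 13.94, 13.55 and 13.63 at 5-6 months, and it ran from 13.68 to 13.90 (median 13.75, n = 6) at 11-12 months. In J20 mice it was 13.67, 12.98, 13.43 and 13.21 at 3 months, 13.56, 12.91, 13.32 and 13.16 at 5-6 months, and 13.75, 13.61 and 13.56 at 11-12 months. At 5-6 months 3 of 4 J20 animals lay below every WT animal and animal 4 lay just above the lowest WT animal. At 3 months WT animal 15 lay far above the other 2 WT animals and above every WT animal of 11-12 months. The other 2 lay below every WT animal of 11-12 months.

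J20 minus WT at 5-6 months was -0.53 for Cox8b (standard error 0.188, 95% interval -0.92 to -0.14) and was not past the threshold (limma adjusted p = 1). It had the same sign without the 3 animals (-0.56) and within each BeadChip (-0.39, -0.43 and -0.47). In WT mice, 11-12 minus 3 months was 0.45 (standard error 0.188, adjusted p = 0.969 in limma) and 5-6 minus 3 months was 0.46 (standard error 0.203, adjusted p = 1 by the same fit). Leaving out WT animal 15 made them 0.76 and 0.77. For the first, the 3 BeadChips gave 0.73, -0.21 and 0.83, the negative value being that of BeadChip 2, which holds animal 15. With limma's array weights the difference of 0.71 passed (adjusted p = 0.0165), the only call of a member in any setting tried. Over all alternatives its adjusted p in limma ran from 0.0165 to 1. In J20, 11-12 minus 5-6 months was 0.40 (adjusted p = 1 in limma).

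Cox7b, a nuclear subunit of complex IV encoded on the X chromosome, stood higher in J20 than in WT mice at 11-12 months by 0.42 (standard error 0.179, 95% interval 0.053 to 0.80), short of the threshold (limma adjusted p = 0.70). The J20 values were 7.16, 6.77 and 6.73, and the 6 WT values ran from 6.10 to 6.98 (median 6.40), with WT animal 12 the only one above a J20 animal. The difference was 0.49 and 0.41 within BeadChips 2 and 3 and 0.29 without the 3 animals. Over the alternatives other than leaving out each animal it ran from 0.18 to 0.46. The Cox7b probe is dim, with a mean log2 intensity of 6.62 against 7.84 for the median tested probe. Cox7a2l stood at 8.55, 10.42 and 9.68 in J20 mice of that age and from 9.78 to 11.23 (median 10.49) in WT mice. Its difference was -0.95 (standard error 0.530, adjusted p = 0.70 in limma) and -0.45 without J20 animal 21, the lowest of the group. With signal strength as a covariate it was -0.27.

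The tissue isoforms of complex IV were detected to very different extents. Cox8b and Cox7a1, known as heart and muscle isoforms, and Cox6b2, known as the testis isoform of subunit 6b, were detected on 24 of 24 arrays, as were Cox8a, Cox7a2 and Cox6b1, the forms found in most tissues. Cox6a2, the muscle isoform of subunit 6a, was detected on 1 array, Cox8c and Cox7b2, the testis isoforms, on 0, and Cox4i2 on 4. Of 7 striated muscle markers 1, Myl1, which encodes a myosin light chain, was detected on all arrays, while Myh6, Myh7, Tnnt3 and Ckm were detected on 0 and Acta1 and Mb on 1. Of 6 brown adipocyte markers Cidea was detected on all arrays, and Ucp1, Elovl3, Dio2, Adipoq and Plin1 on 0. Detection on 0 arrays cannot tell an absent RNA from a probe that does not read it. Uqcrfs1, Uqcrq and Atp5k, which are not among these isoforms, were also detected on 0 arrays. Among fibroblast markers Col1a1 was detected on 23 arrays, and Col1a2 and Col3a1 on 0. Cox7a1 had group means from 12.06 to 12.22 and Cox6b2 from 10.94 to 11.34. Among the remaining subunits the group means spanned 0.25 for Cox7a2, 0.16 for Cox8a, 0.15 for Cox6a1, 0.14 for Cox7c and under 0.10 for Cox4i1, Cox5b and Cox6b1. The second tested probe of Cox6b2 was detected on 19 arrays and went the other way in J20 minus WT at 11-12 months (0.24 against -0.52). There the brightest probe gave 0.033 without the 3 animals of low weight and 0.11 with signal strength as a covariate.

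**Figure D4:**
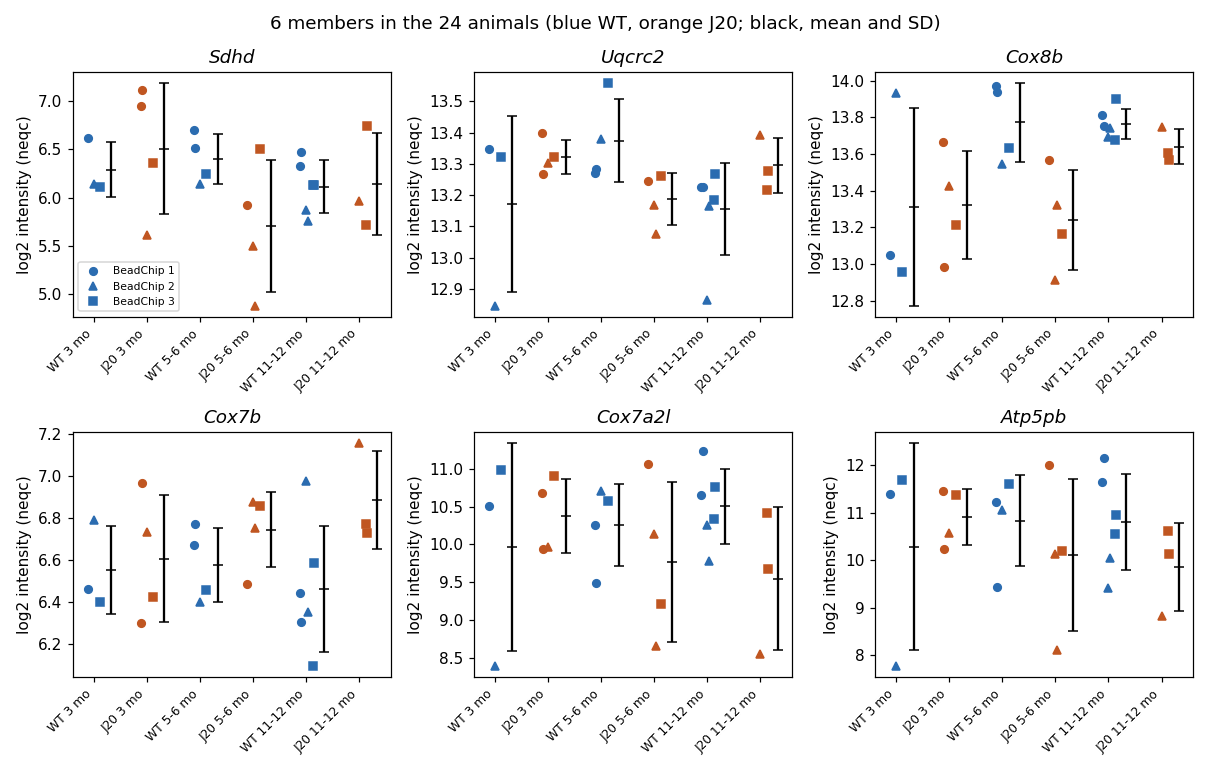
Log2 intensity of Sdhd, Uqcrc2, Cox8b, Cox7b, Cox7a2l and Atp5pb in the 24 animals, by group (blue WT, orange J20), with the marker shape for the BeadChip and black bars for mean and SD. Cox8b is lower in 3 of 4 J20 than in all WT animals at 5-6 months, and Atp5pb is lowest in WT animal 15 (7.78) and J20 animals 18 (8.11) and 21 (8.82).

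In complex V the catalytic beta subunit Atp5b and the rotating gamma subunit Atp5c1 of the F1 part had group means that spanned 0.03 and 0.11. Atp5a1, which encodes the alpha subunit of the same part, was at 7.74 ± 0.12 (SD, n = 4) in WT mice of 5-6 months and 7.98 ± 0.25 (SD, n = 6) at 11-12 months, a difference of 0.24 (limma adjusted p = 1). The 3 genes of the membrane c ring, Atp5g1, Atp5g2 and Atp5g3, encode the same mature protein, and their group means spanned 0.10, 0.26 and 0.09. Atp5pb stood at 7.78 in WT animal 15, 8.11 in J20 animal 18 and 8.82 in J20 animal 21, and from 9.43 to 12.16 in the other 21 animals. Its difference, J20 minus WT at 11-12 months, was -0.95, or -0.44 without J20 animal 21, and 0.30 with signal strength as a covariate. Atp5o, the stalk subunit that confers oligomycin sensitivity, had group means from 8.56 to 9.18 beside a pooled SD of 0.59. Atp5d, the F1 delta subunit, stood 0.24 higher in WT mice of 11-12 than of 3 months (standard error 0.189, limma adjusted p = 0.993), or 0.049 higher once WT animal 15 is left out. Among the other subunits the group means spanned 0.25 for Atp5e, 0.26 for Atp5l, 0.17 for Atp5h, 0.12 for Atp5mpl and under 0.10 for Atp5j and Atp5j2.

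No member differed between J20 and WT at any age past a Benjamini-Hochberg adjusted p of 0.05 in limma, and no probe of the array did (0% of 11464 at each age and over the 3 ages). At an unadjusted p under 0.05 the counts were 0 of 41 members at 3 months, where 0.898% of all probes reached it, 2 at 5-6 months (1.26%), 1 at 11-12 months (5.85%) and 0 over the 3 ages (1.98%). In the test of genotype by age no member and 0% of probes passed, and unadjusted the count was 0 members beside 1.47% of probes. The median 95% interval of a member reached 0.36 to either side of the difference at 3 months and 0.33 at 5-6 and 11-12 months.

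The median of the list lay close to 0 in each comparison of genotype. The median member difference, J20 minus WT, was 0.07 at 3 months with 8 of 41 members below 0, beside 49% of all probes, -0.07 at 5-6 months with 30 below 0 (50.9%), and -0.03 at 11-12 months with 23 below 0 (46.8%). Over the 3 ages it was -0.01 with 22 below 0 (47.1%). The medians over all probes lay between -0.0038 and 0.024. Within BeadChips 1, 2 and 3 the member median was -0.02, 0.15 and 0 at 3 months and 0.06, -0.10 and -0.04 at 5-6 months, and within BeadChips 2 and 3 it was -0.04 and -0.01 at 11-12 months. The sign at 3 months rested on WT animal 15, without which the median was -0.04 with 25 members below 0. The median at 5-6 months was -0.03 without J20 animal 18, with 27 below 0, and that at 11-12 months was -0.0049 without J20 animal 21, with 21 below 0. By complex at 5-6 months, 6 of 7 members of complex III, 12 of 15 of complex IV and 9 of 15 of complex V lay below 0. Median centring in place of quantile normalization turned the sign at 3 months (-0.10) and at 11-12 months (0.18), and it moved the median of all probes to -0.06 and 0.10 there. With signal strength as a covariate the median at 11-12 months was 0.04, with 19 below 0.

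**Figure D5:**
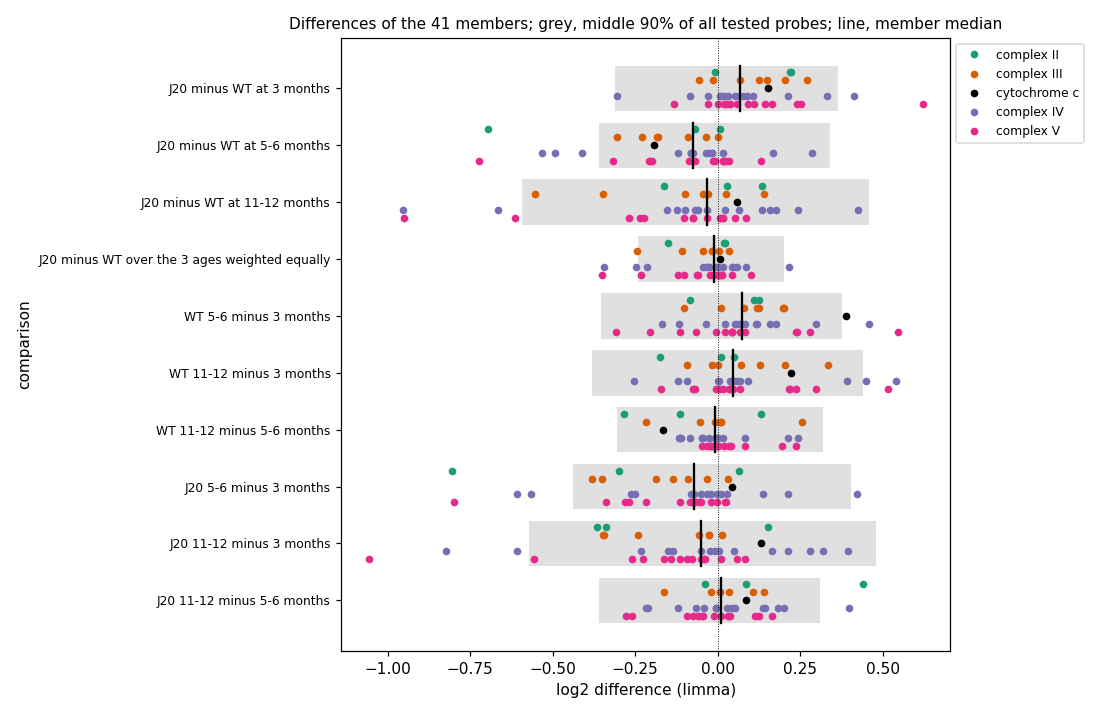
Log2 differences of the 41 members in the 10 comparisons, 1 point per member coloured by complex, with the member median as a black line and the central range of all tested probes (5th to 95th percentile) in grey. Medians lie between -0.07 and 0.07; Cox7a2l and Atp5pb, both near -0.95, lie farthest left in J20 minus WT at 11-12 months.

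With age no member passed in limma in either genotype. In WT mice the share of all probes past the adjusted threshold was 0% for 5-6 minus 3 months, 0.105% for 11-12 minus 3 and 0.0436% for 11-12 minus 5-6, and in J20 mice 0%, 0.0611% and 0.0349%. Unadjusted, 1, 1 and 0 members reached p under 0.05 in WT (2.57%, 4.41% and 1.65% of probes), Cox8b being the gene in both cases, and 1, 0 and 0 in J20 (3.18%, 5.31% and 1.34%), Sdhd being that gene. Within a genotype both comparisons with 3 months use the same 3-month animals, and the comparisons of genotype use them too.

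The median member difference in WT mice was 0.07 for 5-6 minus 3 months (10 of 41 below 0, beside 48.5% of probes) and 0.05 for 11-12 minus 3 (10 below 0, beside 49.9%). Without WT animal 15 these became -0.02 and -0.04. For 11-12 minus 5-6 months, which does not use that animal, it was -0.01 (23 below 0, beside 52%). In J20 mice it was -0.07 for 5-6 minus 3 months (31 below 0, beside 50.8%), -0.05 for 11-12 minus 3 (28 below 0, beside 48.6%) and 0.01 for 11-12 minus 5-6 (18 below 0, beside 48.2%). Within BeadChips 1, 2 and 3 the median was -0.06, 0.14 and 0.02 for WT 5-6 minus 3 months, -0.02, 0.11 and -0.01 for WT 11-12 minus 3, and 0.08, -0.12 and -0.04 for J20 5-6 minus 3. In these 3 comparisons the signs differed between BeadChips as assigned here. For J20 11-12 minus 3 months the median was -0.13 and -0.01 within BeadChips 2 and 3. Without J20 animal 18 the median for J20 5-6 minus 3 months was -0.02 with 25 below 0, and without J20 animal 21 that for 11-12 minus 3 was -0.01 with 24 below 0. The J20 medians for 5-6 and 11-12 minus 3 months turned to 0.05 and 0.16 with median centring, which moved the medians of all probes to 0.05 and 0.10. With signal strength as a covariate the second was 0.07, with 13 below 0. In J20 mice of 11-12 against 3 months the genes with the smallest p were Cox6b2 (0.40, standard error 0.197) and Cox6c, a nuclear subunit of complex IV (-0.23, standard error 0.142), both short of the threshold (limma adjusted p = 0.81). Cox6b2 gave 0.18 without J20 animal 21 and 0.24 with signal strength as a covariate, and its second probe gave -0.13.

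For 7 members a second probe was tested (Atp5j, Cox6a1, Cox6b1, Cox6b2, Cycs, Sdhb and Uqcr10). The probes of a gene differed in sign for 1 of 7 genes when J20 was set against WT at 3 months, for 3 genes at the middle age, for 4 at the oldest and for 5 over the 3 ages. With age the count ran from 0 in WT 11-12 minus 3 months to 5 in WT 11-12 minus 5-6. Atp5j, which encodes coupling factor 6 of ATP synthase, gave 0.02 on its brightest probe and -0.63 on the other in J20 minus WT at 11-12 months. Its brightest probe gave 0.047 without the 3 animals of low weight and 0.12 with signal strength as a covariate.

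No gene on the lists of the wider pathway passed in any of the 10 comparisons in limma. The lists held 33 tested of 35 nuclear complex I subunits, 27 of 38 assembly factors of complexes II to V, 11 of 13 tricarboxylic acid cycle enzymes and 9 of 12 regulators of mitochondrial biogenesis. In J20 minus WT at 11-12 months 1 complex I gene and 1 regulator reached an unadjusted p under 0.05, and 0 assembly factors and 0 cycle enzymes did, beside 5.85% of all probes. The complex I gene was Ndufb4, an accessory subunit, at 0.69 (standard error 0.207, adjusted p = 0.70 in limma), and the regulator was Nrf1, the factor that binds the NRF1 motif above, at 0.58 (adjusted p = 0.70 in limma). Next by p in their lists came Ndufb11 (-0.63) and Tfam (-0.62), which lay lower in J20 (limma adjusted p = 0.70 for both). The median of the regulators was 0.28 there, with 1 of 9 below 0, and that of complex I was -0.05, with 20 of 33 below 0, beside 46.8% of all probes. In WT mice of 11-12 against 3 months Coa5, an assembly factor of complex IV, stood at 0.42 (standard error 0.149, adjusted p = 0.695 in limma). The J20 group of 11-12 months holds animal 21 and the WT group of 3 months holds animal 15. Values of these lists without the animals of low array weight are not given.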

How the data were processed

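Choroid plexus RNA of 24 mice was measured on Illumina arrays. Per the file headers the authors deposited a linear intensity for every probe and array, each with a detection p-value, and a series matrix of log2 values. The deposited log2 values equal the quantile-normalized log2 of the intensities to within 5e-09. All value columns were used. Background and scale were set by the neqc function (limma 3.58.1, R 4.3.3: normexp with controls inferred from the detection p-values, offset 16, quantile normalization, log2). Tested were probes detected (p under 0.01) on 3 arrays or more, in 1 limma fit of 24 arrays with 6 group means, with Benjamini-Hochberg adjustment over 11464 probes and a threshold of 0.05. A median over members has no test. Between 35.0% and 41.6% of probes were detected per array, and the number of arrays limits the precision. Separate animals are assumed from their numbers. Symbols came from the probe table, updated through gene identifiers. The 2 members with the smallest p per comparison, isoform genes, and genes of widest and narrowest spread were named. The members, lists and naming rule were chosen with earlier results of these data known. On simulated data with these means and spreads the fit recovered 53 to 74% of probes changed by a log2 of 1 and 12 to 17% of those changed by 0.5, over 9 comparisons. In each, 100 probes were changed at each of log2 0.5, 1 and 2, with noise drawn independently for each probe. Recovery depends on the number of changed probes and may be lower in the real data, where at most 12 probes passed in a comparison. The sources used here do not give the scanner or bead summary software. Genes of the mitochondrial genome were not analysed here. Alternatives covered normalization, filters, array weights, BeadChip block, signal strength, probe choice, fits of the compared groups alone and leaving out each animal.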

Additional observations from a re-analysis of the deposited data

Results flagged for a closer look

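In 6 of 168 groups of 4 or 6 animals tested for a lone high or low animal (each member, and the mean over members), 1 animal stood apart by Dixon's criterion, where chance gives about 1 in 20. Among WT mice of 5-6 months, Uqcrh, the hinge protein of complex III, was 13.91 in animal 10 with the nearest animal at 14.24. In the same animal Atp5o was 8.46 with the nearest at 9.35, and in WT animal 3 Cox7a2, a subunit 7a isoform, was 8.59 with the nearest at 8.31. Atp5b was 14.85 in J20 5-6-month animal 18 with the nearest at 14.90. Among WT mice of 11-12 months, animal 12 was low for Uqcrc2 (12.87, nearest 13.17) and for Cox4i1, the common form of subunit 4 of complex IV (14.21, nearest 14.47). All values are log2 intensities.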

How the results depend on the processing

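No paired analysis was possible because no animal number occurs in more than 1 group. Counts of members past the threshold stayed at 0 in every comparison and alternative run, except 1 (Cox8b) in WT 11-12 minus 3 months with array weights. Array weights also raised the calls over all probes to 72 from 12 there, to 256 from 7 in J20 11-12 minus 3 months and to 267 from 0 in J20 minus WT at 11-12 months. The BeadChip block gave 19 probes in the first of these. In the J20 group of 11-12 months, animal 35, the array of lowest raw signal, had the highest array weight of all, 4.69. Animals 28 and 21 of that group had 1.43 and 0.330. Median centring without quantile normalization gave member medians of -0.0987 (J20 minus WT at 3 months), 0.177 (at 11-12 months), -0.0158 (WT 5-6 minus 3), -0.0757 (WT 11-12 minus 3), 0.0512 (J20 5-6 minus 3), 0.162 (J20 11-12 minus 3) and 0.143 (J20 11-12 minus 5-6). Signal strength as a covariate gave 0.0745 for J20 11-12 minus 3. Array weights gave -0.0335 for J20 minus WT at 3 months and -0.0312 for WT 5-6 minus 3. Leaving out the 3 arrays of lowest weight, an alternative chosen after seeing the data, gave -0.0423 and -0.0187 for these. Leaving out each animal in turn gave -0.0423 to 0.140 and -0.0187 to 0.147, the low ends without WT animal 15. Uqcrc2 in J20 minus WT at 3 months, 0.150, reversed to -0.0162 with median centring and to -0.0122 without WT animal 15 or without the 3 arrays (lowest to highest over left-out animals -0.0122 to 0.238). The causes were not tested. The fit of the compared groups alone was not run for the mean over ages and the interaction, and Sdhd has no value where only probes detected on all arrays were kept. Of the values of named members 736 kept their direction and side of the threshold.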
